A study of Aptenodytes patagonicus with 7 samples.

Results

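UCP3 (uncoupling protein 3), SLC25A4 and SLC25A6 (both ADP/ATP carriers) were followed bird by bird in the pectoralis, the large breast muscle that moves the wings, of juvenile king penguins. They were taken as every probe set with deposited values whose single chicken gene symbol was UCP3, SLC25A4 or SLC25A6. This gave 3 of the 12920 genes named in those values and 6 of the 36897 probe sets. The authors had left out probe sets with no probe brighter than background on any array. UCP3 had 1 probe set, SLC25A4 had 3 and SLC25A6 had 2. Muscle biopsies came from 3 sea-acclimated juveniles (SA), already used to the sea, and from 4 never-immersed juveniles (NI), which had not yet been in it. The SA group held 2 females and 1 male, and the NI group 3 females and 1 male. All birds were anaesthetized with isoflurane for the biopsy. Different birds made up the groups, so that immersion and anything else that differed between the stages cannot be told apart.

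Both kinds of protein belong to the mitochondrial carrier family and sit in the inner mitochondrial membrane. The respiratory chain pumps protons across this membrane, and ATP synthase uses their return to make ATP. ADP/ATP carriers bring ADP in and take the new ATP out, and they also let some protons leak back, above all when fatty acids are bound. Uncoupling proteins can carry a proton leak as well, so that substrate is burned and heat released without ATP being made. Birds have neither brown fat nor the UCP1 that heats it in mammals, and the avian uncoupling protein is found mainly in skeletal muscle. In mammals SLC25A4 is the carrier of heart and skeletal muscle, SLC25A6 is present in most tissues, and UCP3 is a muscle protein whose transcript follows the supply of fatty acids.

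The RNA of each bird was hybridized to a chicken array, and every value is the log2 intensity of a single chicken probe per probe set, quantile normalized between the arrays. A difference of 1 on this scale is a doubling of intensity. Medians of the arrays lay between 8.58 and 8.59, and Pearson's r between arrays over all probe sets was between 0.941 and 0.979. SA bird 1 had the highest score on the second principal component, which held 23.0% of the variance, at 50.2 against 5.21 in the next highest bird. The sign was set so that SA bird 1 was positive, and the negative scores of other birds are not given. The differences of the member probe sets that move most with SA bird 1 are therefore given with and without it. SA and NI follow the sample labels throughout. Over all probe sets 154 were called higher and 240 lower in SA. The study's text gives 240 genes as higher and 154 as lower after acclimation. These are the same totals exchanged, for a reason that was not tested. The signed array differences in its supplement run in the same direction as the labels, but they cover only the single genes it measured by quantitative PCR. Of 14 skeletal muscle fibre markers, 12 were measured, 11 of them brighter than the median probe set, and ACTA1, the skeletal actin, had the highest value on every array. The arrays measured whole biopsies, in which fewer cells of a type and less RNA per cell cannot be told apart. The probes were designed for chicken and can also bind penguin transcripts of related genes.

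UCP3 was lower in SA than in NI birds, and it was the only member that passed the test. Its log2 intensity was 9.46, 8.95 and 8.88 in SA birds 1, 2 and 3, against 10.48, 10.07, 11.19 and 10.39 in NI birds 1, 2, 3 and 4. The groups did not overlap, and 0.61 log2 units separated the highest SA bird from the lowest NI bird. The mean was 9.10 ± 0.31 (SD, n = 3) in SA and 10.53 ± 0.47 (SD, n = 4) in NI. The difference was -1.44 log2 units (standard error 0.25, 95% confidence interval -2.003 to -0.867), so that the SA mean stood at 37.0% of the NI mean (interval 25.0% to 54.8%). By limma fitted to all probe sets this gave an adjusted p of 0.0523, under the threshold of 0.10, and by an exact two-sided permutation test of the 35 ways to divide the birds p = 0.0286, the smallest that 3 birds against 4 allow. Within a sex the values were alike, with -1.37 between the means of the female SA and female NI birds and -1.51 between the male SA and the male NI bird, each without a test.

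Of the 6 member probe sets, 1 was called and was lower in SA, where 1.07% of all probe sets were called and 0.65% were called lower. The count at an unadjusted p under 0.05 was 2 of 6, UCP3 and the dimmer probe set of SLC25A6, against 10.4% of all probe sets. Non-overlapping groups were found in 1 of 6, UCP3, against 10.3% of all probe sets. With so few members these shares describe them and no more, and 183 probe sets had a smaller p than UCP3.

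**Figure D1:**
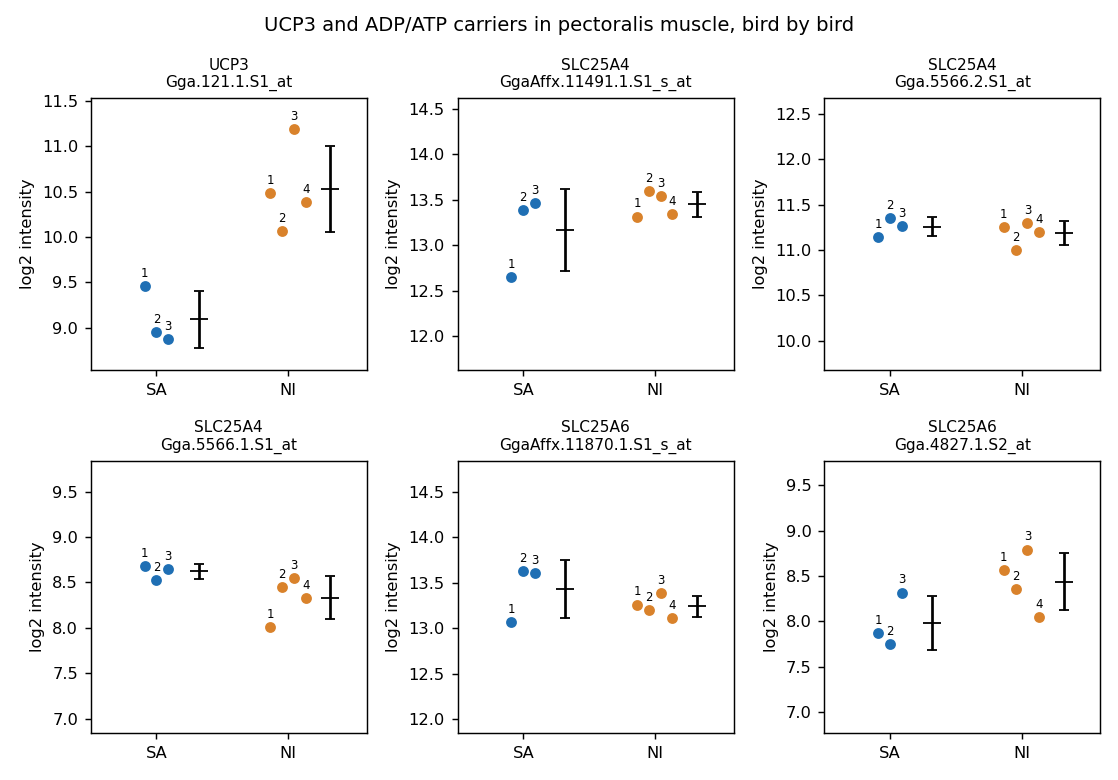
Log2 intensity (vertical axis, each panel spanning the same range of 3 log2 units) of the 6 probe sets in each bird, SA on the left and NI on the right; panel titles give the probe set, small figures are bird numbers and bars show the mean and SD. UCP3 is 8.88 to 9.46 in SA and 10.07 to 11.19 in NI, while the groups overlap in all 5 carrier panels.

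The call of UCP3 depended on single birds, while its direction and size were kept. When each bird was left out in turn, the log2 difference stayed between -1.62 and -1.22. The call was lost without NI bird 1 (limma adjusted p = 0.134), SA bird 2 (0.154) or SA bird 3 (0.177), and it was kept in the remaining 4 of 7 fits. NI bird 3, the highest of all, did not carry the result, since without it the difference was -1.22 and the limma adjusted p 0.0437. Without SA bird 1, the highest of its group, the difference was -1.62 (limma adjusted p = 0.0616).

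**Figure D2:**
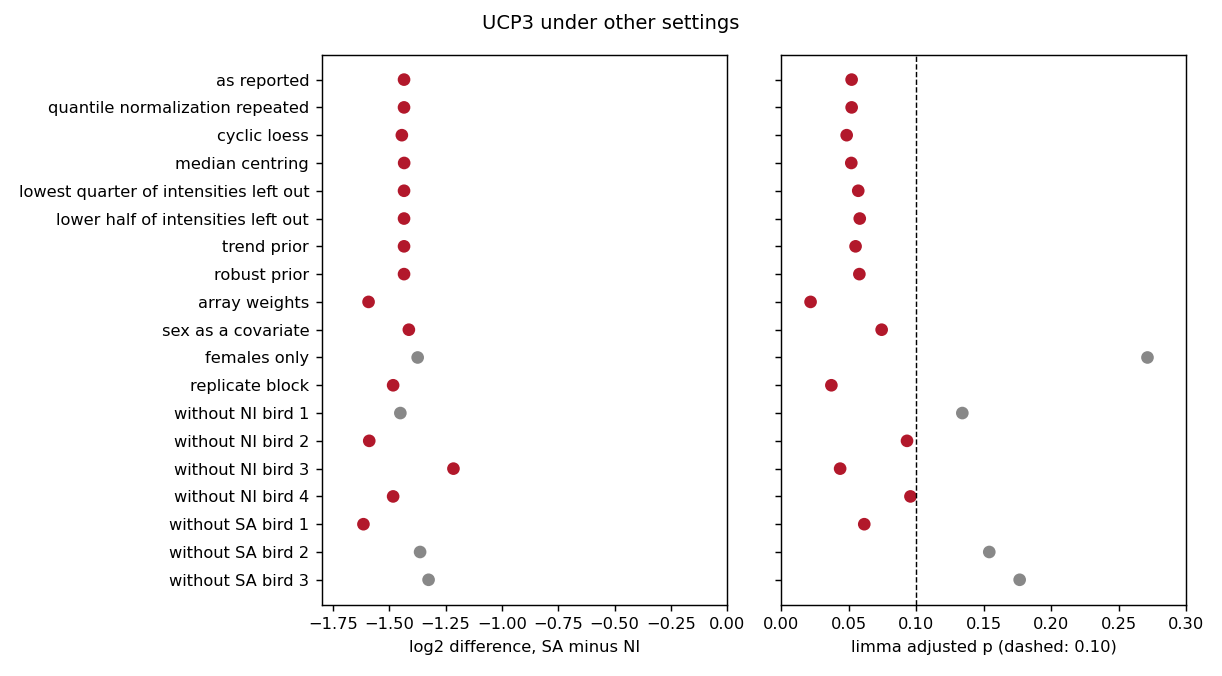
The SA minus NI log2 difference of UCP3 (left) and its limma adjusted p (right, dashed line at 0.10) as reported and under each other setting, red where the adjusted p is under 0.10 and grey where it is not. All differences lie between -1.62 and -1.22, and the 4 grey settings are the females alone and the fits without NI bird 1, SA bird 2 or SA bird 3.

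SLC25A4, the muscle ADP/ATP carrier of mammals, did not pass the test in any of its 3 probe sets, whose differences lay on both sides of 0. The brightest had 12.65, 13.39 and 13.47 in SA birds 1 to 3, against 13.32, 13.60, 13.54 and 13.34 in NI birds 1 to 4. Only SA bird 1 was low, and the other SA birds lay within the NI range. The difference was -0.28 (standard error 0.20, limma adjusted p = 0.710), and without SA bird 1 it was -0.02. The next probe set had 11.15, 11.36 and 11.27 in SA birds, against 11.25, 10.999, 11.30 and 11.20 in NI birds, a difference of 0.07 (standard error 0.12, limma adjusted p = 0.905). Its 95% confidence interval, 87.3% to 126% of the NI mean, was the narrowest of the 6 members. The dimmest had 8.68, 8.53 and 8.65 in SA birds, against 8.004, 8.45, 8.55 and 8.33 in NI birds. The groups barely overlapped, by 0.015 log2 units, and the difference was 0.29 (standard error 0.14, limma adjusted p = 0.546).

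SLC25A6, the other ADP/ATP carrier, also missed the threshold in both of its probe sets, which differed in sign. The brighter had 13.06, 13.63 and 13.61 in SA birds 1 to 3, against 13.26, 13.20, 13.39 and 13.11 in NI birds 1 to 4. SA birds 2 and 3 lay above every NI bird and SA bird 1 below all of them. The difference was 0.19 (standard error 0.16, limma adjusted p = 0.768) with all birds and 0.38 (limma adjusted p = 0.225) without SA bird 1. The dimmer had 7.88, 7.75 and 8.32 in SA birds, against 8.56, 8.35, 8.79 and 8.04 in NI birds, a difference of -0.46 (standard error 0.20, limma adjusted p = 0.463). Here the overlap came from the males, SA bird 3 at 8.32 and NI bird 4 at 8.04. The difference was -0.76 among females, where the groups did not overlap, and 0.27 between the males.

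For none of the 5 carrier probe sets does a missed threshold show that the birds had equal levels. The limma 95% intervals ran from 60.6% to 112% of the NI mean for the brightest SLC25A4 probe set and from 97.7% to 153% for the dimmest. They ran from 89.4% to 146% for the brighter SLC25A6 probe set and from 53.5% to 99.3% for the dimmer. The dimmest SLC25A4 and the dimmer SLC25A6 probe set were dimmer than the median probe set. The authors describe no subtraction of background from the values. Any background left in them would understate fold differences of dim probe sets, by an amount that was not measured.

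Probe sets of the same carrier did not vary together from bird to bird. Over the 7 birds Pearson's r was 0.09, -0.23 and -0.01 for the 3 pairs of SLC25A4 probe sets and 0.02 for the pair of SLC25A6. In 2 of these 4 pairs the SA minus NI difference itself differed at an exact permutation p of 0.0286, adjusted to 0.0571 over the 4 pairs. They were the brightest and dimmest of SLC25A4, which differed by -0.57 log2 units, and the brighter and dimmer of SLC25A6, which differed by 0.65. These tests were added after the values had been seen. A single value for either carrier was therefore not formed.

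Whether UCP3 differed between the groups by more than the carriers was tested within each bird, as log2 UCP3 minus log2 carrier. Such a difference has no meaning as a level, because chicken probes differ in how well they bind, but its shift between groups compares the changes. UCP3 fell relative to 4 of the 5 carrier probe sets, with no overlap of the groups. Against the brighter SLC25A6 probe set, the within-bird difference was -3.61, -4.68 and -4.73 in SA birds 1 to 3 and -2.78, -3.13, -2.20 and -2.73 in NI birds 1 to 4, a shift of -1.63. Against the dimmer SLC25A6 probe set the shift was -0.98, and against the middle and dimmest SLC25A4 probe sets it was -1.50 and -1.72. Each of these 4 reached an exact permutation p of 0.0286 (two-sided, 0.0357 adjusted over the 5 pairs). UCP3 alone had already reached this p, the smallest possible, with a gap of 0.61 log2 units between the groups. Subtracting any probe set that spanned less than that gap over the birds would keep the separation. The middle SLC25A4 probe set (10.999 to 11.36) and the brighter SLC25A6 probe set (13.06 to 13.63) spanned less. For them the non-overlap was fixed by UCP3 alone and is no test of the carrier. The share of all probe sets that would do so was not counted, so the non-overlap says little about the carriers.

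Against the brightest SLC25A4 probe set the groups overlapped. The within-bird difference was -3.19, -4.43 and -4.59 in SA birds and -2.83, -3.53, -2.35 and -2.96 in NI birds, with SA bird 1 above NI bird 2. The shift was -1.15 (exact permutation p = 0.0857, also 0.0857 adjusted), and it was -1.59 without SA bird 1. All 5 comparisons share the same UCP3 values and are not independent of each other.

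**Figure D3:**
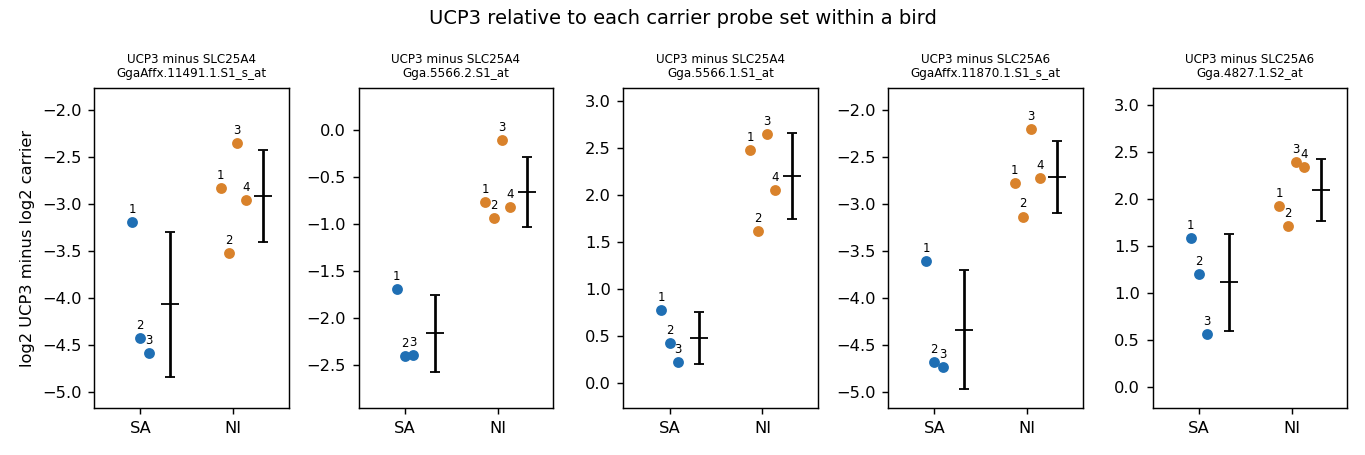
Log2 UCP3 minus log2 carrier within each bird (vertical axis) for the 5 carrier probe sets, SA on the left and NI on the right, with bird numbers and bars for the mean and SD. SA birds lie below all NI birds in 4 panels, and in the first, SLC25A4 at its brightest probe set, SA bird 1 at -3.19 lies above NI bird 2 at -3.53.

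Genes that work beside UCP3 and the carriers were counted in 8 lists, each gene by its brightest probe set. Among the 97 measured genes other than the members, 1 was higher and 2 were lower in SA at a limma adjusted p under 0.10, where 1.55% of all 12920 genes were called. With 1 bird left out, between 0 (without NI bird 2) and 3 of the 97 were called. Groups did not overlap in 26 of the 97, against 11.5% of all genes. The genes were picked for their known roles, but with earlier results of these data known. The counts therefore describe the listed genes and no more.

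Of the uncoupling proteins and near relatives 3 of 6 were measured, and all had negative differences. Their median of -1.44, against 0.0028 over all genes, was the value of UCP3 itself and adds nothing to it. Besides UCP3 the measured genes were SLC25A30 and SLC25A14, carriers close to the uncoupling proteins in sequence. SLC25A30 had 9.65, 10.08 and 10.93 in SA birds 1 to 3, against 11.43, 12.50, 11.42 and 11.35 in NI birds 1 to 4. The groups did not overlap, but the difference of -1.45 (standard error 0.35) missed the threshold (limma adjusted p = 0.132). SLC25A14 lay at -0.62 (limma adjusted p = 0.444), and its dimmer probe set at 0.26.

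Adenine nucleotide and phosphate carriers were measured for 8 of 11 genes, SLC25A4 and SLC25A6 among them. None was called, with 3 positive and 5 negative differences and a median of -0.23. SLC25A5, the ADP/ATP carrier of dividing cells in mammals, had 9.95, 10.41 and 10.26 in SA birds, against 10.28, 11.04, 10.85 and 10.52 in NI birds. Its difference was -0.46 (standard error 0.19, limma adjusted p = 0.435), and the groups overlapped. SLC25A17, which carries nucleotides across the peroxisomal membrane, lay at -1.52 (limma adjusted p = 0.123) with no overlap between the groups, and its dimmer probe set at -0.21. SLC25A25, a calcium-regulated carrier of ATP-magnesium and phosphate, lay at 0.25, with 2 further probe sets at -0.31 and 0.04.

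Of 17 partners of the ADP/ATP carriers PHB2 alone was called. PHB2 is a prohibitin, a scaffold protein of the inner membrane, and it had 10.31, 10.47 and 10.71 in SA birds, against 11.35, 11.39, 10.99 and 11.31 in NI birds. It was lower by a difference of -0.76 (standard error 0.14, limma adjusted p = 0.0674), a call that was kept in 1 of the 7 fits that left out a bird, the fit without NI bird 3. TIMM22, which inserts carriers into the inner membrane, lay at 0.37 and VDAC1, the pore of the outer membrane, at 0.42 (limma adjusted p = 0.180 and 0.183). Neither overlapped between the groups, but the dimmer probe set of TIMM22 lay at 0.06 with overlapping groups. None of 13 ATP synthase genes was called, and 11 of them had negative differences; the list ran from -0.36 for ATP5G2 to 0.34 for ATP5S. ATP5G3, which like ATP5G2 encodes the membrane ring subunit, lay at -0.25.

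**Figure D4:**
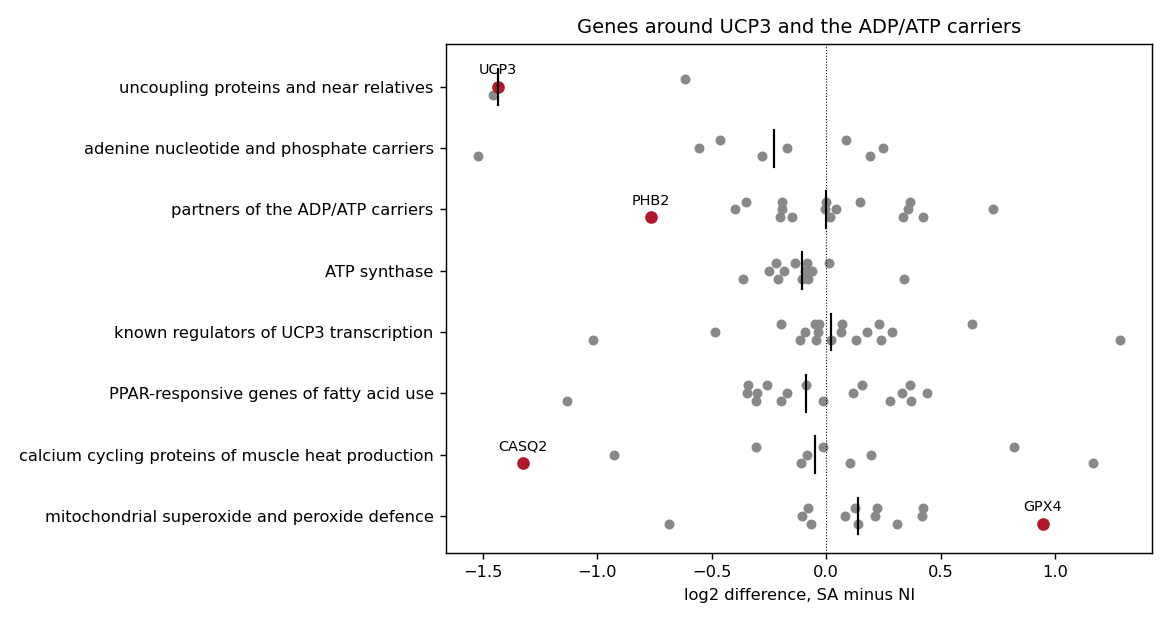
SA minus NI log2 difference (horizontal axis) of the brightest probe set of each measured gene in 8 lists (rows), red and named where the limma adjusted p is under 0.10, grey otherwise, with a short line at the list median. UCP3, PHB2, CASQ2 and GPX4 are the 4 genes called among 100, and GPX4 alone of them is higher in SA.

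No known regulator of UCP3 transcription was called among 19 measured, whose median was 0.02. PPARGC1A, the coactivator of mitochondrial biogenesis, had 9.94, 9.61 and 10.12 in SA birds 1 to 3, against 10.94, 11.79, 10.74 and 10.17 in NI birds 1 to 4. All SA birds lay below the NI birds, NI bird 4 closely so, and the difference was -1.02 (standard error 0.32, limma adjusted p = 0.255). Its second probe set lay at -0.84 with overlapping groups. FOXO1, a factor of fasting muscle, lay at 1.29 and the thyroid hormone receptor THRB at 0.64 (limma adjusted p = 0.188 and 0.227), both without overlap. That probe set of THRB was dim, at percentile 27.6, and its dimmer probe set lay at 0.15 with overlapping groups.

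Genes of fatty acid use that answer to PPAR receptors, as UCP3 does in mammals, were not called in any of 17 measured cases, and their median was -0.09. FABP3, which binds fatty acids in the muscle cytosol, had 11.53, 12.46 and 12.01 in SA birds, against 13.16, 12.98, 13.64 and 12.75 in NI birds. The groups did not overlap, and the difference was -1.13 (standard error 0.25, limma adjusted p = 0.108). ETFDH, which feeds electrons from fatty acid oxidation to the respiratory chain, lay at 0.44 and FABP4 at 0.28.

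**Figure D5:**
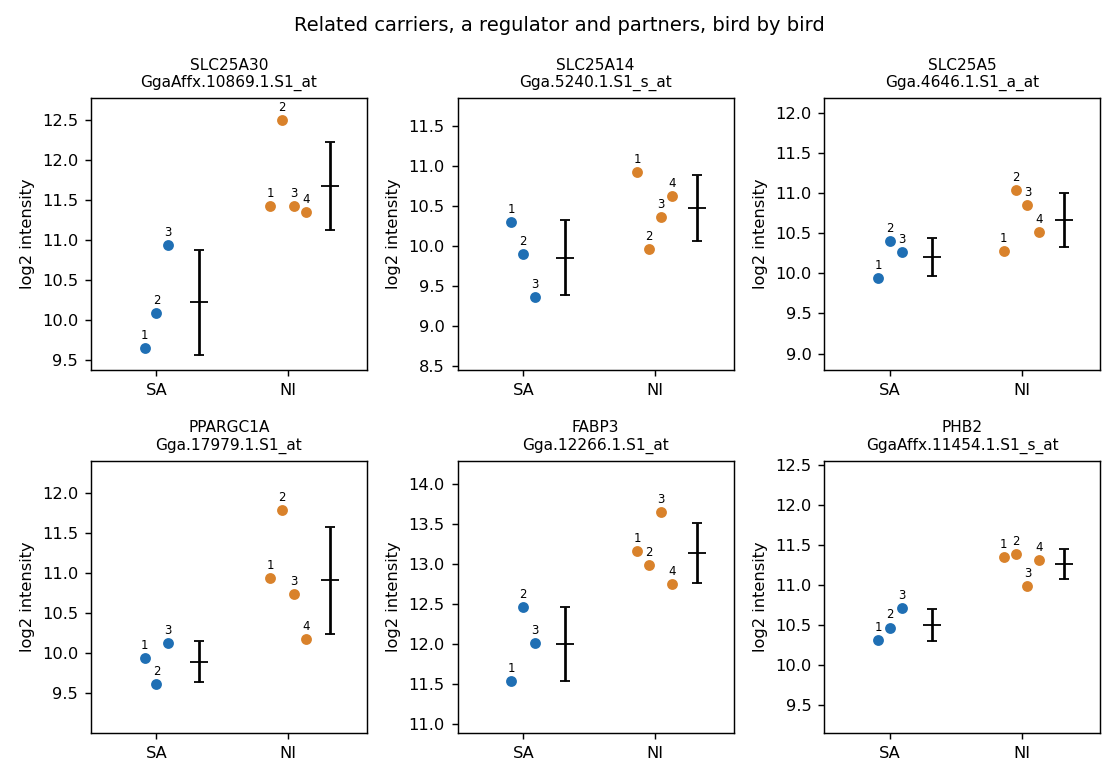
Log2 intensity (vertical axis, each panel spanning an equal range) in each bird, SA on the left and NI on the right, of 2 relatives of UCP3, a further ADP/ATP carrier, a regulator, a fatty acid binding protein and a prohibitin, with bird numbers and bars for the mean and SD; the genes were chosen for the plot after their values were seen. PHB2 alone passed the threshold, and SA lies below NI without overlap for SLC25A30, PPARGC1A, FABP3 and PHB2.

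Among calcium cycling proteins, which serve muscle heat production by another route, CASQ2 was lower in 1 of 10 measured genes. CASQ2 is the calcium store protein of slow and cardiac muscle, with a difference of -1.32 (standard error 0.20, limma adjusted p = 0.0329), and its second probe set was also called at -1.22 (limma adjusted p = 0.0393). The call of the brighter one was lost without NI bird 2 (limma adjusted p = 0.114). ORAI1, a channel of calcium entry, lay at 1.17 with overlapping groups, and the calcium pump ATP2A3 at 0.82 (limma adjusted p = 0.154 and 0.203). Further probe sets of ATP2A3 lay at 0.24 and -0.12. Another calcium pump, ATP2A2, was brighter and lay at -0.93 by its brightest probe set (limma adjusted p = 0.236), with overlapping groups. Over the 10 genes 4 differences were positive and 6 negative. Of 13 genes of mitochondrial superoxide and peroxide defence, GPX4, which reduces lipid peroxides, was higher by 0.95 (standard error 0.19, limma adjusted p = 0.0826), a call kept only in the fit without NI bird 4 when birds were left out. NNT, which supplies mitochondrial NADPH, lay at -0.69 and SOD1 at 0.42 (limma adjusted p = 0.213 and 0.347). Their dimmer probe sets lay at -0.23 for NNT and -0.12 for SOD1.

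Some markers of fibre type and of other cells also differed between the groups. Counts of calls below stand beside 1.55% of all 12920 genes called by their brightest probe set. Of 9 measured slow fibre markers 3 were called lower in SA, namely TNNI1 (-1.65), MYOZ2 (-1.59) and CASQ2, and the summed linear intensity of the list was 25136 to 31144 in SA and 36440 to 42091 in NI birds. Of the 9 measured, 8 had negative differences, where the median difference over all genes was 0.0028. TNNC1, the brightest of them at percentile 99.9, lay at -0.02 (limma adjusted p = 0.983), and MYL2 at 0.14. The dimmer probe set of TNNI1 lay at 0.07. MYH7, MYL2 and MYH7B of that list were dim, at percentiles 7.86, 11.2 and 24.7 of all probe sets by mean log2 intensity. Of 9 fibroblast markers COL1A1 (-2.43) and COL1A2 (-0.95) were called lower, with a summed intensity of 4103 to 8271 in SA and 10345 to 20766 in NI birds. Other probe sets of COL1A2 ran from -2.33, which was called, to 0.33, which was not. Of 9 adipocyte markers RBP7 was called higher (1.13), and the list had a summed intensity of 12180 to 13608 in SA and 8244 to 11142 in NI birds. The separation of that sum came from RBP7 itself, at log2 12.50 to 12.88 in SA and 11.16 to 12.09 in NI birds. The dimmer probe set of RBP7 lay at 0.07, and counted by any probe set 2 of the 9 were called. The mean log2 intensity of that list overlapped, at 9.60 to 9.71 in SA and 9.49 to 9.65 in NI birds. LPL (-0.26), ADIPOQ (-0.30), CD36 (-0.34) and PLIN1 (-0.12) had negative differences, none of them called by its brightest probe set. TNNC2 (-0.94) was called lower among the fibre markers and TFRC (-1.64) among 5 erythroid markers. The dimmer probe set of TFRC lay at -0.06, with overlapping groups. None of 9 endothelial and 8 leukocyte markers was called. With each bird left out in turn, TNNI1 and COL1A2 were called in 7 of 7 fits and TNNC2 in 6, but MYOZ2 in 3, COL1A1 and TFRC in 2 and RBP7 in 1, the fit without NI bird 3. The part of any of these in the difference of UCP3 was not tested.

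The genes whose log2 values followed UCP3 most closely over the 7 birds were sought among 26106 other probe sets with a single symbol. The highest Pearson's r was that of GALNT7 (0.982), followed by BORA (0.977), TTC36 (0.969), TSPOAP1 (0.969) and MYOZ2 (0.966), a protein of the Z-disc in slow muscle. MYOZ2 had 10.78, 10.28 and 10.79 in SA birds, against 12.31, 11.78, 12.96 and 11.77 in NI birds, with NI bird 3 the highest as it was in UCP3. The lowest r was that of TMEM87B (-0.999), SP3 (-0.990), TM2D2 (-0.986), PHF2 (-0.980) and MACF1 (-0.980). The dimmest of all these were TM2D2, GALNT7 and BORA, at percentiles 0.83, 18.1 and 23.8 by mean log2 intensity. Their SA minus NI differences were only 0.19, -0.39 and -0.24, none of them called. The r values given so far include the difference between the groups. On deviations from the group means the highest were FGF18 (0.995), PDLIM7 (0.993), SFMBT2 (0.991), EFCAB14 (0.986) and OPN5L2 (0.978), of which none was among the first 5. Over the 7 birds their r was -0.63, 0.23, 0.31, 0.78 and -0.12 in that order. FGF18 was called higher in SA, by 0.64 (limma adjusted p = 0.0990), the opposite direction to UCP3. Against the carriers, r of UCP3 over the 7 birds was between -0.49 for the dimmest SLC25A4 and 0.71 for the dimmer SLC25A6 probe set. On deviations from the group means these were 0.33 and 0.38, and the brightest SLC25A4 probe set, at 0.26 over the birds, was at -0.42. All these are descriptions over 7 arrays, picked from many probe sets.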

How the data were processed

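RNA from 1 pectoralis biopsy per bird was hybridized to Affymetrix chicken arrays. The authors deposited log2 intensities. To make them, the authors kept perfect-match probes brighter than background on at least 1 array, took in each probe set the probe with the maximum rank sum (MAXRS) and made the distributions of all arrays equal by quantile normalization. Limma, with no version, is named in the submitters' processing notes. Scanner files were not used here. Symbols came from the chicken platform annotation, in which 26108 probe sets had 1 symbol, 171 several and 10618 none.

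Differences (SA minus NI) were fitted to all 36897 deposited probe sets, without a further filter, by limma 3.58.1 in R 4.3.3. The functions were lmFit and eBayes, with 5 residual and 4.34 prior degrees of freedom. The p-values were adjusted by Benjamini-Hochberg with a threshold of 0.10. Exact two-sided permutation tests compared the sizes of differences of means. Named were all member probe sets, called list genes and up to 3 of each list by p, and the 5 probe sets most like UCP3 by each measure. ATP2A2 and some further markers were named besides these. Members and lists were chosen with earlier results of these data known. Tests of whether probe sets of 1 gene differed were added after their values had been seen. The fit was tested on simulated data. Alternatives were other normalizations, intensity filters, priors, array weights, sex, replicate number, single birds left out and a threshold of 0.05. Precision is limited by the number of arrays, 7.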

Additional observations from a re-analysis of the deposited data

Results flagged for a closer look

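In 2 of 49 sets of values from the 4 NI birds, 1 bird lay far from the rest by Dixon's ratio, the gap to the nearest bird over the whole range, where chance gives about 1 in 20. In SLC25A30 NI bird 2 had 12.50 and the remaining NI birds 11.35 to 11.43 (ratio 0.931). In BORA, named for its likeness to UCP3, NI bird 3 was at 8.03, against 7.86 to 7.88 (ratio 0.885). No member probe set was marked in this way.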

How the results depend on the processing

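Every member probe set kept the sign of its difference in all alternatives run on it, and no carrier probe set passed the threshold in any of them. UCP3 lost its call among females alone (difference -1.37, limma adjusted p = 0.271, 0 members called, 2 of 6 at an unadjusted p under 0.05) and at a threshold of 0.05 (difference -1.44, 0 members called), where fewer birds or a stricter threshold were used. With 1 bird left out its difference ran from -1.62 to -1.22 and the number of members called from 0 to 1. Over the normalizations, filters, priors, array weights and sex as a covariate UCP3 stayed called, with differences from -1.59 (array weights) to -1.41 (sex). The UCP3 shifts against the carriers kept their sign throughout, without a test where a bird was left out. The listed genes called, 3 with all birds, ran from 0 to 3 with 1 bird left out, with 1 without NI bird 1, 0 without NI bird 2, and 1 each without SA bird 1 and SA bird 2; the cause was not tested. UCP3 had a single probe set, so no other could replace it, and the filter at the median intensity removed the dimmest SLC25A4 and the dimmer SLC25A6 probe set.

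Replicate numbers name separate birds and for that reason were not read as pairs. Deviations of birds with the same number correlated at 0.29, -0.03 and 0.17, and 3 of 6 birds were most like their own number. These are too few birds to decide whether the numbers carry a pairing. The fit with the replicate block left out NI bird 4, whose number no SA bird shares. In it UCP3 differed by -1.48 (limma adjusted p = 0.0373), and calls over all probe sets numbered 624. The same birds without the block gave -1.48 (limma adjusted p = 0.0958) and 243 calls, and all birds without it gave 394. Those calls also numbered 766 with array weights, 66 among females, 157, 95 and 243 without NI bird 1, 2 or 4, and 180 and 139 without SA bird 2 or 3.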
